A study of Homo sapiens with 12 samples.

Results

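Collagens are the main structural proteins of the extracellular matrix, and fibroblasts are the cells that make most of them. The genes described here are all protein-coding genes of the count table whose symbol reads COL, a number, A and a number, 44 of 60671 genes in all. Of these 44, 28 had more than 1 CPM (a gene's counts per 1000000 gene counts) in 3 or more libraries and were tested among 13236 genes. They comprise 9 of 11 fibrillar collagens, 4 of 10 FACIT collagens, 5 of 6 chains of basement membrane type IV, 3 of 5 chains of beaded filament type VI, 2 of 3 short chain network collagens, type VII of the anchoring fibrils, both multiplexins, 1 of 4 transmembrane collagens and 1 of 2 others.

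The RNA came from BJ-5ta, human fibroblasts that were made immortal by telomerase, either wild type (WT) or ΔLEO1, in which LEO1, a subunit of the PAF1 complex that accompanies RNA polymerase II, was deleted with CRISPR/Cas9. Cells grew in RPMI medium with 10% fetal bovine serum or spent 10 days in the same medium with 0.1% serum, a treatment that brings fibroblasts into quiescence. Poly(A) RNA with added ERCC spike-in transcripts was sequenced in 3 libraries per group, 4 groups in all: WT in 10% serum (libraries 1 to 3), ΔLEO1 in 10% serum (4 to 6), WT in 0.1% serum (7 to 9) and ΔLEO1 in 0.1% serum (10 to 12). All ΔLEO1 libraries came from 1 clone, clone 13, so a difference of genotype cannot be told apart from a difference between clones. Neither the labels nor the methods state whether the 3 libraries of a group were separate cultures, so the p-values measure the spread between these libraries, which may be technical.

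Gene counts per library ran from 26240632 to 45315560. LEO1 had 851, 935 and 915 counts in WT cells in 10% serum and 1001, 799 and 682 in 0.1% serum. The ΔLEO1 libraries had 53, 36 and 55 counts in 10% serum and 23, 47 and 49 in 0.1% serum, a log2 fold change of -4.02 and -4.32. The highest-numbered library of each group stood apart: the median difference of the tested collagens between the other libraries of a group was 0.042 to 0.105 on the log2 CPM scale, against 0.177 to 0.477 in pairs that held the highest-numbered one. The number of gene counts per ERCC count differed by up to 3.03-fold within a group, the most in ΔLEO1 cells in 0.1% serum. All 10 markers of fibroblasts were tested, with a summed level of 11840 to 24550 CPM, while those of endothelial cells summed to 0.4 to 5.52 CPM and those of blood cells to 0.995 to 8.24 CPM. Epithelial markers, mostly KRT18, summed to 318 to 462 CPM in WT and 841 to 1141 CPM in ΔLEO1 cells in 10% serum, and to 165 to 180.4 and 509 to 584.5 CPM in 0.1% serum. The 3 smooth muscle or pericyte markers summed to 3.05 to 20.8 CPM and the 4 chondrocyte markers to 3.83 to 83.6 CPM, highest in ΔLEO1 cells in 0.1% serum, where COMP led them. The part of these markers in the results was not tested.

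Every collagen is built of chains that wind around each other in a helix, either copies of a single chain, as in type III, or chains from several genes, as in types I, IV and VI. Fibrillar collagens, types I, III and V among them, form the banded fibrils that give tissue its tensile strength, and FACIT collagens sit on the surface of those fibrils. Type IV forms the sheet-like network of basement membranes, and type VI forms beaded filaments around cells. The chains are hydroxylated and folded in the endoplasmic reticulum, trimmed after secretion by proteases and cross-linked by lysyl oxidases.

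The 6 genes of type IV lie in head to head pairs, so each pair shares the DNA between its start sites. In RefSeq on GRCh38.p14 the starts lie 127 bases apart for COL4A1 and COL4A2, 380 for COL4A5 and the nearest start of COL4A6, and 419 for COL4A4 and COL4A3. COL4A6 has a further start at chrX:108438422, whose window is not printed. The sequences before these starts are printed because the pairs moved together or apart in the data. They are the whole stretch from COL4A1 to COL4A2 on chr13:110307158-110307283 (plus strand), and the 250 bases before the start of COL4A4 on chr2:227164206-227164455 (minus strand), of COL4A5 on chrX:108439588-108439837 (plus strand) and of COL4A6 on chrX:108439459-108439708 (minus strand), the last pair of windows overlapping. Capitals mark CCAAT and GGGCGG on either strand.
COL4A1 to COL4A2: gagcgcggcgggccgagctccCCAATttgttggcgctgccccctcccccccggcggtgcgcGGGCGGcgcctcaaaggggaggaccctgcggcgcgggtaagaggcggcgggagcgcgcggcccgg
COL4A4: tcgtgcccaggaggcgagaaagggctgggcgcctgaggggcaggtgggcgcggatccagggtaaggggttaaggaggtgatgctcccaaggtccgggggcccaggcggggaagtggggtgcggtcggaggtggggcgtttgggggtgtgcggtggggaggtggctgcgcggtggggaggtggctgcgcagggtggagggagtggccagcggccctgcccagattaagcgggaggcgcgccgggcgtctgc
COL4A5: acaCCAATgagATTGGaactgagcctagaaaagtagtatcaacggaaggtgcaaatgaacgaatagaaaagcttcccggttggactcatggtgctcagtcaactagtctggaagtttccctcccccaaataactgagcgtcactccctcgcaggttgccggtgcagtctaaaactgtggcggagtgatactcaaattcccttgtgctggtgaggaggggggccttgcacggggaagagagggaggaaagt
COL4A6: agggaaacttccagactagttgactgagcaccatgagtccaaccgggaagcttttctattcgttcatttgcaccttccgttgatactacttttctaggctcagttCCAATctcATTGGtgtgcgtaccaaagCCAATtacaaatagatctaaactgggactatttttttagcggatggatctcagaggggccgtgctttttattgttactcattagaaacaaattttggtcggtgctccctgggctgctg

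The short stretch between COL4A1 and COL4A2 held 1 CCAAT and 1 GGGCGG and was 80.2% G and C. The window of COL4A4 held neither motif, and those of COL4A5 and COL4A6 held 2 and 3 matches to CCAAT and none to GGGCGG. RefSeq gave 29 windows for 21 of the 28 tested collagens. No window was available for COL14A1, COL1A1, COL1A2, COL3A1, COL5A2, COL6A1 and COL8A1. GGGCGG was in 65.5% of them and in 42.6% of 35116 windows of all genes, CCAAT in 27.6% and 32.0%, TATAAA in 13.8% and 10.7%, and TGANTCA in 0% and 6.57%. The windows of all genes include genes that were not tested, so these shares compare unlike sets. Both strands were read, and a match describes the letters of a window only.

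Levels are ERCC-scaled counts, the count of a gene per 1000000 effective ERCC counts, so that a change in RNA relative to the spike-in remains visible. For abundant genes they are given in kilo-units (ku), 1 ku being 1000 ERCC-scaled counts. Fewer cells, less RNA per cell and a lower RNA input to a library cannot be told apart in these bulk samples. The RNA input of each library is not given. Per kilobase of exon, the highest mean collagen levels in WT cells in 10% serum were those of COL1A1 (316300 ± 129800), COL1A2 (197200 ± 59910), COL6A2 (56830 ± 14480) and COL3A1 (54210 ± 23400; SD, n = 3). The ranges of COL6A2 and COL3A1 overlapped each other and those of COL6A1 (26570 to 56340) and COL6A3 (24730 to 48560), so the order below type I is not resolved, and by the length of the longest transcript COL6A3 ranked 4 and COL3A1 5. By CPM, COL1A1 was the most abundant of all genes in 10% serum in both genotypes and ranked 2 in 0.1% serum, and COL1A2 ranked 3 in each group. The lowest of the tested collagens there were COL28A1, with 2.64 ± 3.05 per kilobase, and COL14A1, with 6.72 ± 3.72, whose ranges overlapped.

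**Figure D1:**
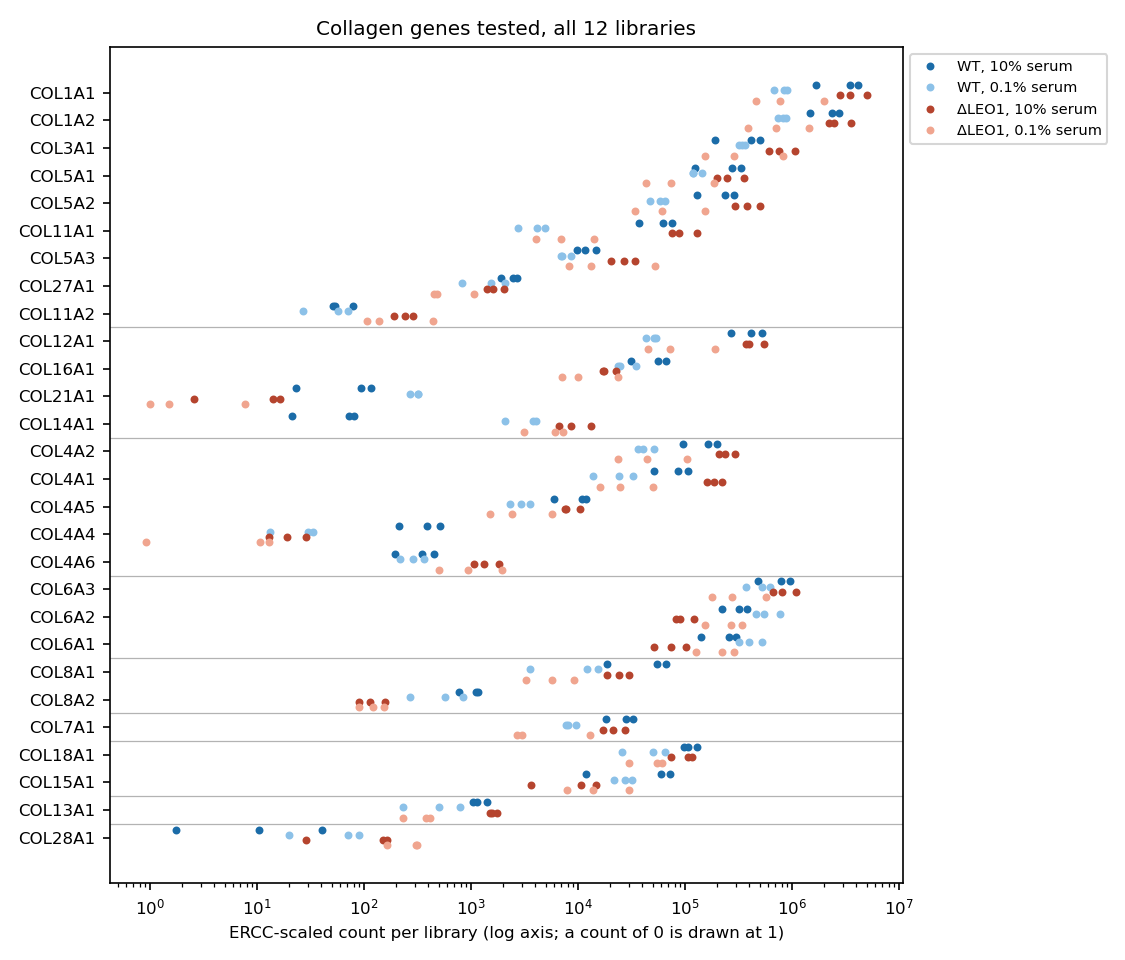
ERCC-scaled counts (horizontal log axis) of the 28 tested collagen genes in each of the 12 libraries, grouped by type and divided by grey lines; each point is a library. COL1A1 reaches the highest values, and COL14A1 lies between 21.3 and 80.4 in WT cells in 10% serum, below all other groups.

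In low serum 13 of the 28 tested collagens fell and 3 rose in WT cells, with a median log2 fold change of -0.91 against -0.97 over all tested genes. Of all genes, 36.1% were called lower and 0.944% higher (edgeR likelihood ratio test on the ERCC scale, Benjamini-Hochberg adjusted p under 0.05). Those that fell were COL11A1, COL4A4, COL12A1, COL8A1, COL1A1, COL5A2, COL4A2, COL4A1, COL4A5, COL7A1, COL1A2, COL18A1 and COL13A1. Those that rose were COL14A1, COL21A1 and COL28A1. COL4A4 and COL21A1 passed the filter through 1 group each, where they were high, so calls against that group say nothing of them. The same comparison in ΔLEO1 cells had 16 lower and 3 higher, with a median of -1.36 against -1.05 over all genes, of which 47.2% were called lower and 0.975% higher. The 3 that rose there were COL6A1, COL6A2 and COL28A1. The groups did not overlap for 14 lower and 4 higher collagens in WT cells (53.4% and 1.16% of all genes) and for 16 and 3 in ΔLEO1 cells (50.9% and 0.846%).

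The 2 lists of lowered collagens shared 12 genes, which is 92.3% of the WT list and 75% of the ΔLEO1 list. Over all tested genes the shared calls were 78.5% and 59.9% of the respective lists. Scaled by the total of the genes (TMM), which gives the change relative to other genes, 11 collagens were lower and 8 higher in each genotype, against 16.6% and 16.0% of all genes in WT and 12.9% and 16.5% in ΔLEO1 cells. On the ERCC scale the median log2 fold change of all genes lay below that with TMM, with a difference of -0.97 in WT and -1.06 in ΔLEO1 cells. Without the highest-numbered library of each group, 16 were lower and 3 higher in WT cells (72.4% and 1.28% of all genes) and 21 and 2 in ΔLEO1 cells (93.1% and 0.751%). COL4A4 and COL21A1 were not tested there. Single libraries moved some counts. The share of all genes called in those fits is not given here, so the moves are not shown to be particular to collagens. In WT cells the number higher was 1 without library 7 or 8 and 5 without library 11 or 12. In ΔLEO1 cells the number lower was 10 without library 4 or 11 and 8 without library 10, and the number higher was 1 without library 5 and 0 without library 10.

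Between genotypes in 10% serum, 7 collagens were lower and 4 higher in ΔLEO1 cells, with a median of 0.17 against 0.35 over all genes, of which 4.64% were called lower and 4.2% higher. The 7 were COL4A4, COL8A2, COL21A1, COL15A1, COL6A2, COL6A1 and COL16A1, and the 4 were COL14A1, COL28A1, COL4A6 and COL11A2. In 0.1% serum COL21A1 and COL8A2 were lower and COL11A2, COL28A1, COL4A6 and COL5A3 higher, with a median of 0.05 against 0.27 and a background of 3.59% and 3.85%. COL4A4 passed the filter through WT cells in 10% serum alone and COL21A1 through WT cells in 0.1% serum alone. Each had to be lower against that group, so its call there says nothing of it. Both are also among the lower genes without overlap and with TMM scaling in those comparisons. The groups did not overlap for 6 lower and 9 higher collagens in 10% serum (6.94% and 23.7% of all genes) and for 6 and 3 in 0.1% serum (4.83% and 4.64%). The genotype comparisons share their libraries with the serum comparisons.

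With TMM scaling, 11 collagens were lower and 10 higher in ΔLEO1 cells in 10% serum (21.8% and 17.7% of all genes) and 11 and 6 in 0.1% serum (17.6% and 15.4%). On the ERCC scale the median of all genes lay above that with TMM, by 0.35 and 0.25. In 10% serum the number lower was 4 without library 1 or 6, and the number higher was 7 without library 11 or 12. Without library 1 COL4A4 was not tested. In 0.1% serum the number lower was 1 without library 7, 8 or 9, fits in which COL21A1 was not tested, and 10 without library 12. The number higher in 0.1% serum was 1 without library 9 and 2 without library 12. For these single-library fits, too, the share of all genes called is not given here. Without the highest-numbered library of each group, 6 were lower and 4 higher in 10% serum (6.82% and 6.72% of all genes) and 11 and 2 in 0.1% serum (15.9% and 2.54%).

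**Figure D2:**
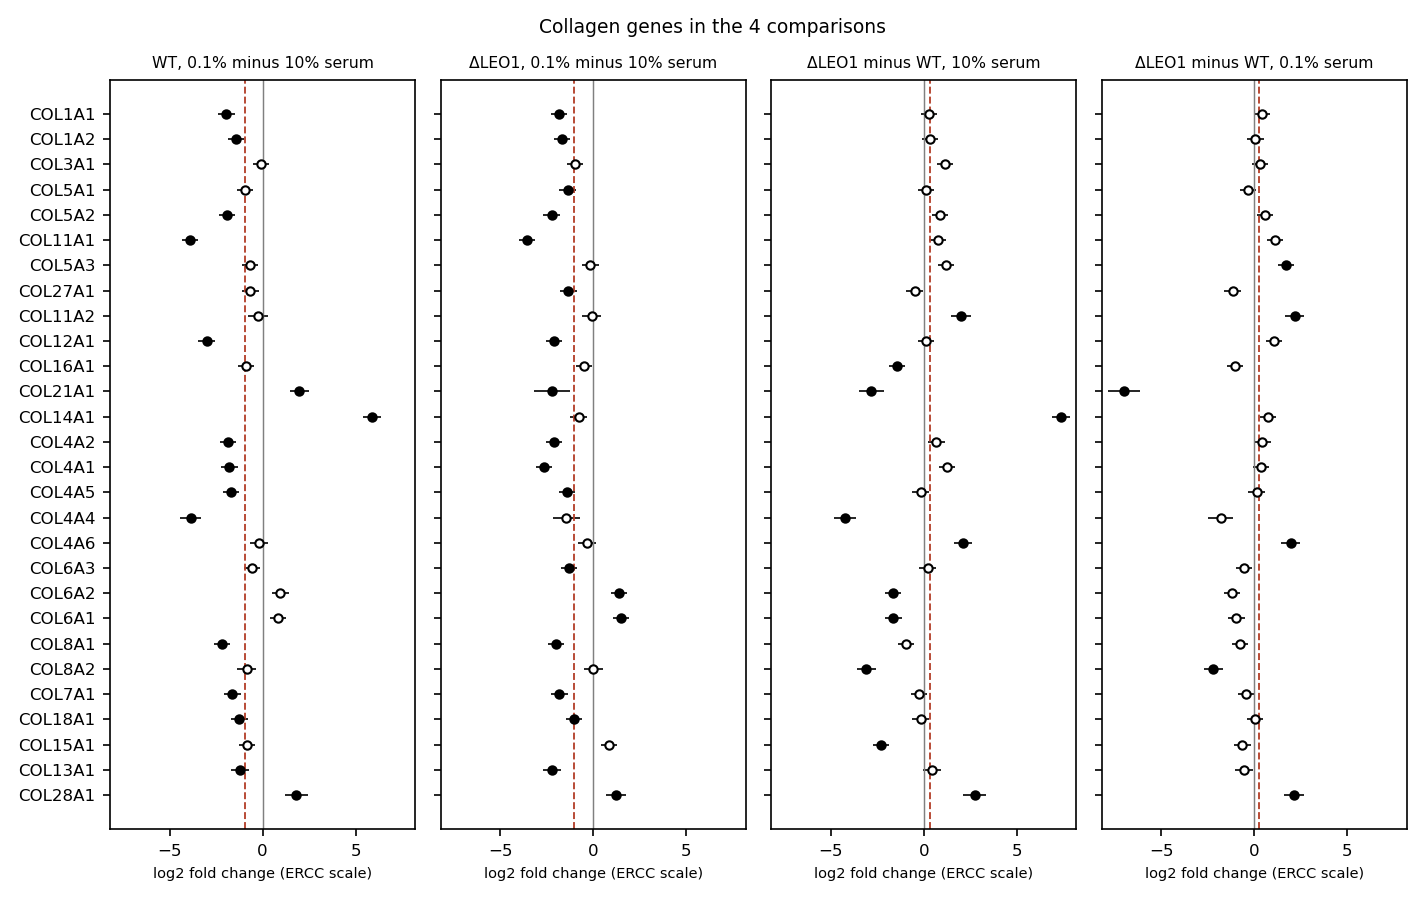
Log2 fold changes on the ERCC scale (horizontal axis) with standard errors (bars) of the 28 tested collagens in 4 comparisons; filled points were called at an adjusted p under 0.05 and the dashed line is the median of all tested genes. COL14A1 is at 5.87 in the serum comparison of WT cells and at 7.38 in the genotype comparison in 10% serum.

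Type I collagen, the chief protein of most connective tissue fibrils, fell in low serum in both genotypes. COL1A1 had 4146, 3487 and 1685 ku in WT cells in 10% serum and 686, 835 and 896 in 0.1% serum, and 4994, 3526 and 2828 in ΔLEO1 cells in 10% serum and 769, 458 and 1983 in 0.1% serum. The serum groups did not overlap in either genotype, and COL1A1 changed by -1.95 ± 0.43 on the log2 scale (SE; adjusted p = 0.000356) in WT and -1.82 ± 0.43 (adjusted p = 0.00127) in ΔLEO1 cells. COL1A2, the partner chain, had 2781, 2351 and 1469.6 ku in WT cells in 10% serum and 737, 884 and 819 in 0.1% serum. The ΔLEO1 clone had 3552, 2488 and 2205 ku in 10% serum and 712, 386 and 1441 in 0.1% serum. Its fold changes were -1.44 (adjusted p = 0.00936) and -1.70 (adjusted p = 0.00280). The call of COL1A2 in WT cells was lost without library 1 or 7, with a largest adjusted p of 0.0802, and in ΔLEO1 cells without library 10, with an adjusted p of 0.0518. Neither chain was called between genotypes, with changes of 0.28 and 0.32 in 10% serum and 0.41 and 0.06 in 0.1% serum.

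Type III collagen, which mixes with type I in the fibrils of skin and vessels, was not called in either serum comparison. COL3A1 had 502, 413 and 192 ku in WT cells in 10% serum and 319.9, 344 and 368 in 0.1% serum, and the groups overlapped. Its log2 fold change was -0.10 ± 0.43 (adjusted p = 0.831) on the ERCC scale and 0.99 (adjusted p = 0.000408) with TMM scaling, so it rose relative to the other genes and not on the ERCC scale. In ΔLEO1 cells COL3A1 had 1071, 764 and 615 ku in 10% serum and 289.6, 154 and 818 in 0.1% serum, a change of -0.96 (adjusted p = 0.0559). In 10% serum every ΔLEO1 library lay above every WT library, and the difference of 1.15 ± 0.43 had an adjusted p of 0.0904. With TMM scaling that difference was 0.83 (adjusted p = 0.00239). The level of COL3A1 relative to COL1A1 per kilobase, a ratio chosen after the values were seen, was 0.165 to 0.175 in WT cells in 10% serum, 0.309 to 0.314 in ΔLEO1 cells in 10% serum, 0.592 to 0.672 in WT cells in 0.1% serum and 0.486 to 0.595 in ΔLEO1 cells in 0.1% serum. COL3A1 and COL5A2 lie tail to tail on chromosome 2, 19.1 kilobases apart.

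Type V collagen starts fibrils and limits their width. COL5A2 had 289, 237 and 129 ku in WT cells in 10% serum and 58.1, 65.3 and 47.6 in 0.1% serum, a log2 fold change of -1.94 (adjusted p = 0.000412). ΔLEO1 cells had 507, 380.4 and 295 ku in 10% serum and 61.3, 34.4 and 155 in 0.1% serum, a change of -2.24 (adjusted p = 5.43e-05). Both serum comparisons of COL5A2 were free of overlap. Its partner COL5A1 had 334, 278 and 125 ku in WT cells in 10% serum and 119, 146 and 119 in 0.1% serum, with overlap and a change of -0.94 (adjusted p = 0.0704). In ΔLEO1 cells COL5A1 had 354, 248 and 198 ku in 10% serum and 74.9, 43.5 and 189 in 0.1% serum, a change of -1.38 (adjusted p = 0.0138) that was lost without library 4, 10 or 11, with an adjusted p of up to 0.113, and that was not called with TMM scaling (-0.40, adjusted p = 0.0976). COL5A3, a minor chain, was higher in ΔLEO1 than in WT cells in 0.1% serum by 1.71 (adjusted p = 0.00359), but without the highest-numbered libraries the difference, which was lost without library 7 or 12, was 0.49 (adjusted p = 0.356).

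Type XI collagen, best known as the fibril nucleator of cartilage, had the largest fall of the tested collagens in WT cells by its point estimate. COL11A1 had 75.8, 62.7 and 37.0 ku in WT cells in 10% serum and 4.14, 4.92 and 2.74 in 0.1% serum, a 14.9-fold fall (log2 -3.90 ± 0.44, adjusted p = 1.05e-12). The ΔLEO1 libraries had 129.6, 88.8 and 75 ku in 10% serum and 6.98, 4.06 and 14.1 in 0.1% serum (log2 -3.54 ± 0.44, adjusted p = 1.15e-10). The call held in all 12 fits that left out a library, in both genotypes. The second chain, COL11A2, was not called in either serum comparison and differed between genotypes. It had 79.5, 50.9 and 53.2 ERCC-scaled counts in WT cells in 10% serum and 57.0, 71.3 and 26.7 in 0.1% serum, and 289.5, 193 and 244 in ΔLEO1 cells in 10% serum and 108, 137 and 447 in 0.1% serum. All ΔLEO1 libraries lay above all WT libraries at each serum level, with differences of 1.99 (adjusted p = 0.00557) and 2.16 (adjusted p = 0.00190). The first call was lost without library 2 (adjusted p = 0.0728) and the second without library 9 or 12 (up to 0.0681). COL27A1 was called in the serum comparison of ΔLEO1 cells alone among the 4 comparisons (-1.34, adjusted p = 0.0226, lost without library 4, 10 or 11 and with TMM scaling at -0.22 and 0.470), and its serum responses were not shown to differ (interaction adjusted p = 1).

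COL12A1 and COL14A1, both FACIT collagens, moved in opposite directions in WT cells. COL12A1, which binds the surface of type I fibrils, had 521, 415 and 271 ku in WT cells in 10% serum and 51.5, 54.3 and 43.6 in 0.1% serum, an 8.08-fold fall (log2 -3.01 ± 0.44, adjusted p = 1.55e-08). In ΔLEO1 cells COL12A1 had 552, 399.5 and 375 ku in 10% serum and 72.9, 44.8 and 191 in 0.1% serum (log2 -2.10 ± 0.44, adjusted p = 0.000169). COL14A1, a close relative that also coats fibrils, was nearly silent in WT cells in 10% serum, with 21, 30 and 12 reads or 72.6, 80.4 and 21.3 ERCC-scaled counts. It had 4092, 3805 and 2062 in WT cells in 0.1% serum. ΔLEO1 cells held 8649, 6604 and 13216 in 10% serum and 6091, 3127 and 7304 in 0.1% serum. WT cells in 10% serum were thus the low group, and ΔLEO1 cells in 0.1% serum overlapped both other groups.

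COL14A1 rose by 5.87 ± 0.49 on the log2 scale in WT cells (adjusted p = 3.94e-21) and was 7.38 ± 0.49 higher in ΔLEO1 than in WT cells in 10% serum (adjusted p = 1.95e-30). In ΔLEO1 cells the serum change was -0.79 ± 0.45 (adjusted p = 0.117), and in 0.1% serum the genotypes differed by 0.73 ± 0.45 (adjusted p = 0.552). The test of the difference between the serum responses gave -6.65 ± 0.66 (adjusted p = 1.94e-16) and held in all 12 fits. The level of COL14A1 relative to COL12A1 per kilobase, again chosen after the values were seen, went from 0.000123 to 0.000289 in WT cells in 10% serum to 0.0683 to 0.115 in 0.1% serum.

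COL21A1, another FACIT collagen, had 118, 93.8 and 23.0 ERCC-scaled counts in WT cells in 10% serum and 269.8, 317 and 318 in 0.1% serum. The ΔLEO1 clone had 4, 1 and 6 reads in 10% serum and 1, 0 and 3 reads in 0.1% serum. WT and ΔLEO1 libraries did not overlap at either serum level. In 0.1% serum WT libraries held 618 reads in all and ΔLEO1 libraries 4, a ratio of 161 on the ERCC scale (95% exact interval 62.5 to 592, counting error only). In 10% serum the ratio was 6.41 (3.40 to 13.4), from 82 and 11 reads. The gene passed the filter through WT cells in 0.1% serum only, so it had to be lower elsewhere, and its values against that group are a description: 1.98 for low serum in WT cells and -4.19 for the interaction. Of the 9 fits without a library that tested it, 6 lost the interaction call (without library 2, 3, 4, 6, 10 or 11). COL16A1, also of the FACIT type, was lower in ΔLEO1 cells in 10% serum by 1.43 on the log2 scale, with 67.3, 56.2 and 31.3 ku in WT and 22.7, 17.7 and 17.2 in ΔLEO1 cells (adjusted p = 0.0203). The call of COL16A1 was lost without library 1, 2, 4, 5 or 6, with an adjusted p of up to 0.162.

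Over the 28 collagens, 2 were called in the interaction of genotype and serum, COL14A1 and COL21A1, both lower and the latter bound by the filter, where 0.0831% of all genes were called lower and 0.136% higher. The count was 1 without any of libraries 2, 3, 4, 6, 7, 8, 9, 10 and 11, and 1 was called higher without library 11, which was 0 otherwise. COL21A1 was not tested without library 7, 8 or 9. Shares of all genes in those fits are not given here. With TMM scaling 4 were lower and 3 higher, against 1.02% and 3.06% of all genes. Without the highest-numbered libraries COL14A1 alone was called, against 0.736% lower and 0.147% higher of all genes.

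**Figure D3:**
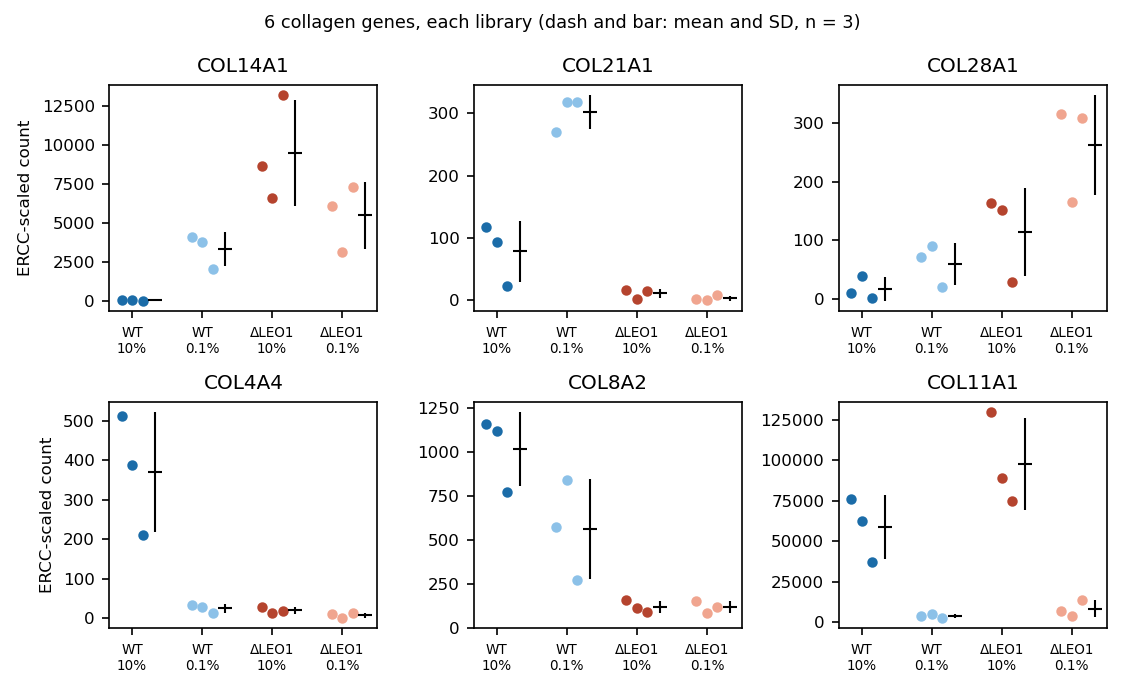
ERCC-scaled counts of 6 collagen genes in each library (coloured points) with the mean and SD of 3 libraries (black dash and bar), on linear axes that differ between panels. COL14A1 is near 0 in WT cells in 10% serum alone, COL21A1 and COL8A2 are low in ΔLEO1 cells at both serum levels, and COL4A4 is high in WT cells in 10% serum alone.

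COL4A1 and COL4A2, which together form the common type IV network, fell together in low serum. COL4A1 had 107, 86.3 and 51.1 ku in WT cells in 10% serum and 24.4, 32.8 and 13.8 in 0.1% serum, a change of -1.78 (adjusted p = 0.00128). ΔLEO1 cells had 221, 162 and 189 ku in 10% serum and 24.7, 16.0 and 50.6 in 0.1% serum, a change of -2.65 (adjusted p = 1.34e-06). The serum groups of COL4A1 did not overlap in either genotype. COL4A2 had 201, 164 and 96.3 ku in WT cells in 10% serum and 40.6, 51.2 and 36.5 in 0.1% serum (-1.85, adjusted p = 0.000799), and 292, 208 and 238 in ΔLEO1 cells in 10% serum and 43.9, 23.7 and 106 in 0.1% serum (-2.09, adjusted p = 0.000184). In 10% serum all ΔLEO1 libraries exceeded all WT libraries for both chains, yet neither difference was called on the ERCC scale (1.23, adjusted p = 0.0608, and 0.68, adjusted p = 0.452). With TMM scaling both were called higher in ΔLEO1 cells (0.92, adjusted p = 1.85e-07, and 0.37, adjusted p = 0.0478).

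COL4A4, a chain of kidney and eye basement membranes, had 512, 389 and 211 ERCC-scaled counts in WT cells in 10% serum and 33.4, 29.9 and 13.4 in 0.1% serum. The ΔLEO1 libraries had 28.5, 12.9 and 19 in 10% serum and 10.6, 0.921 and 12.8 in 0.1% serum. WT cells in 10% serum were the high group, free of overlap with the others, and the gene passed the filter through them alone. COL4A4 therefore had to be lower elsewhere, and its log2 differences are a description: -4.22 ± 0.61 for ΔLEO1 against WT cells in 10% serum and -3.86 ± 0.55 for low serum in WT cells. Its head to head partner COL4A3 was not tested, with 5, 14 and 5 reads in WT cells in 10% serum, 1, 0 and 4 in 0.1% serum and 0 in all 6 ΔLEO1 libraries.

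On the X chromosome, COL4A5 fell in low serum in both genotypes (-1.70, adjusted p = 0.00303, and -1.41, adjusted p = 0.0146, the latter lost without library 4, 10 or 11 with an adjusted p of up to 0.109). The neighbouring COL4A6 was not called there on the ERCC scale (-0.19 and -0.33). With TMM scaling COL4A6 rose in WT and ΔLEO1 cells (0.81, adjusted p = 1.19e-05, and 0.69, adjusted p = 2.29e-05). COL4A5 fell with TMM scaling too (-0.71, adjusted p = 2.25e-07, and -0.42, adjusted p = 0.004435). COL4A6 had 453, 351 and 195 ERCC-scaled counts in WT cells in 10% serum and 291, 368 and 217 in 0.1% serum. The ΔLEO1 clone had 1847, 1314 and 1079.9 in 10% serum and 934, 505 and 1935 in 0.1% serum. All ΔLEO1 libraries lay above all WT libraries at each serum level, by 2.09 ± 0.49 (adjusted p = 0.000872) and 1.95 ± 0.49 (adjusted p = 0.00256), the latter lost without library 9 (adjusted p = 0.0503). COL4A5 was not called between genotypes (-0.17 and 0.12). The level of COL4A6 relative to COL4A5 per kilobase, chosen after the values were seen, was 0.0415 to 0.0486 in WT and 0.183 to 0.226 in ΔLEO1 cells in 10% serum, and 0.12 to 0.131 and 0.424 to 0.498 in 0.1% serum. The windows printed above for these genes overlap.

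COL6A1 and COL6A2 of type VI were higher in low serum and lower in ΔLEO1 cells in every non-overlapping comparison below, though not each was called on the ERCC scale. COL6A1 had 301, 258 and 142 ku in WT cells in 10% serum and 395, 530.2 and 322 in 0.1% serum, without overlap, and its change of 0.83 ± 0.44 was not called (adjusted p = 0.102). With TMM scaling COL6A1 rose by 1.82 (adjusted p = 2.17e-24). In ΔLEO1 cells COL6A1 had 102, 74.2 and 50.9 ku in 10% serum and 224, 128 and 287 in 0.1% serum, a rise of 1.496 ± 0.44 (adjusted p = 0.00857). COL6A2 had 377, 318 and 223 ku in WT cells in 10% serum and 551, 770.3 and 458 in 0.1% serum (0.95, adjusted p = 0.0659, and 1.91 with TMM scaling), and 121, 89.9 and 82.7 in ΔLEO1 cells in 10% serum and 269, 153 and 341 in 0.1% serum (1.38, adjusted p = 0.0139). In 10% serum ΔLEO1 cells held less of both, by 1.63 (adjusted p = 0.00450) and 1.65 (adjusted p = 0.00404) on the log2 scale, without overlap. In 0.1% serum ΔLEO1 libraries again lay below all WT libraries for both, with differences of -0.96 (adjusted p = 0.242) and -1.22 (adjusted p = 0.0714). With TMM scaling these differences were -1.12 (adjusted p = 4.17e-10) and -1.38 (adjusted p = 8.58e-19). Without the highest-numbered libraries they were -1.39 (adjusted p = 0.00236) and -1.65 (adjusted p = 0.000216) on the ERCC scale. The serum call of COL6A1 was lost without library 10 (adjusted p = 0.0589) and that of COL6A2 without library 5 or 10 (up to 0.0808). The genotype call of COL6A1 was lost without library 1 or 6 (up to 0.0926) and that of COL6A2 without library 5 or 6 (up to 0.0571).

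On the ERCC scale COL6A3, the long chain of type VI, did not follow the other chains, except between genotypes in 0.1% serum, where its point estimate was lower too. It had 953, 788 and 486 ku in WT cells in 10% serum and 522, 625 and 372 in 0.1% serum, a change of -0.55 (adjusted p = 0.254) on the ERCC scale and of 0.43 (adjusted p = 0.000769) with TMM scaling. In ΔLEO1 cells COL6A3 had 1094, 806 and 661 ku in 10% serum and 276, 179 and 575 in 0.1% serum, a change of -1.31 (adjusted p = 0.0175) that was lost without library 4, 10 or 11, with an adjusted p of up to 0.117, and that was not called with TMM scaling (-0.26, adjusted p = 0.0606). Between genotypes its changes were 0.20 and -0.56, neither called on the ERCC scale. In 0.1% serum the difference of COL6A3 was -0.83 with TMM scaling (adjusted p = 1.86e-12). Without the highest-numbered libraries it was -1.335 on the ERCC scale (adjusted p = 0.00393). In 10% serum COL6A3 was called in neither of these settings. COL6A1 and COL6A2 lie on the same strand of chromosome 21, 93.0 kilobases apart, and COL6A3 is on chromosome 2.

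The short chain collagen VIII, a network former of vessels and cornea, differed between its chains in the calls on the ERCC scale as well. COL8A1 fell in low serum in both genotypes (-2.18, adjusted p = 8.32e-05, and -2.01, adjusted p = 0.000455). Between genotypes it was not called on the ERCC scale with all libraries (-0.94 and -0.78). With TMM scaling COL8A1 was lower in ΔLEO1 cells in 10% and 0.1% serum (-1.21, adjusted p = 0.00153, and -0.92, adjusted p = 0.0228). Without the highest-numbered libraries it was lower on the ERCC scale too (-1.17, adjusted p = 0.0143, and -1.615, adjusted p = 0.000237). COL8A2 had 1158, 1116 and 772 ERCC-scaled counts in WT cells in 10% serum and 576, 839 and 272 in 0.1% serum. ΔLEO1 cells had 159, 113 and 90.2 in 10% serum and 153, 89.3 and 121 in 0.1% serum. No ΔLEO1 library reached a WT library, and COL8A2 was lower by 3.08 ± 0.51 (adjusted p = 7.57e-07) and 2.21 ± 0.50 (adjusted p = 0.000633) on the log2 scale. Both calls held in all 12 fits that left out a library.

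Of the remaining tested collagens, COL7A1, which anchors the epidermis to the dermis, fell in both genotypes (-1.63 and -1.82, adjusted p = 0.00417 and 0.00172, the latter lost without library 10 at 0.0768). The transmembrane collagen COL13A1 was called lower as well, with 1421, 1148 and 1036 ERCC-scaled counts in WT cells in 10% serum and 506, 789 and 234 in 0.1% serum (-1.24, adjusted p = 0.0385). In ΔLEO1 cells COL13A1 went from 1737, 1576 and 1524 to 385, 231 and 411 (-2.24, adjusted p = 0.000385), and the call in WT cells was lost without library 1, 2, 5, 7 or 9, with an adjusted p of up to 0.239. In WT cells COL13A1 was not called with TMM scaling (-0.39, adjusted p = 0.303) or the quasi-likelihood test (adjusted p = 0.0534). The multiplexin COL18A1, precursor of endostatin, fell by 1.25 and 1.03 (adjusted p = 0.0236 and 0.0449), but with TMM scaling its change was -0.37 in WT and 0.12 in ΔLEO1 cells and was not called, and the quasi-likelihood test gave an adjusted p of 0.0568 in ΔLEO1 cells. The calls of COL18A1 were lost in 4 and 8 of the 12 fits that left out a library, with an adjusted p of up to 0.175 and 0.154 (without library 1, 2, 7 or 9 in WT cells and without 2, 4, 5, 6, 7, 8, 10 or 11 in ΔLEO1 cells). COL18A1 shares 16.4% of its exon bases with SLC19A1 on the opposite strand, and the strand setting of the counting is not given in the sources used here. The other multiplexin, COL15A1, was lower in ΔLEO1 cells in 10% serum by 2.31 on the log2 scale (adjusted p = 1.90e-05), with overlap: 73.4, 59.2 and 12 ku in WT and 14.8, 10.6 and 3.65 in ΔLEO1 cells.

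COL28A1, a rare collagen with von Willebrand factor A domains, was called higher in all 4 comparisons by the likelihood ratio test and in none by DESeq2 on the ERCC scale. It had 3, 15 and 1 reads in WT cells in 10% serum (10.4, 40.2 and 1.77 ERCC-scaled counts) and 70.9, 89.7 and 20.0 ERCC-scaled counts in 0.1% serum. The ΔLEO1 libraries had 163, 152 and 28.5 in 10% serum and 315, 165 and 308 in 0.1% serum. The groups of WT cells overlapped, and those of ΔLEO1 cells did not. The log2 changes were 1.80 ± 0.62 and 1.21 ± 0.53 with serum (adjusted p = 0.0188 and 0.0498) and 2.74 ± 0.62 and 2.14 ± 0.53 between genotypes (adjusted p = 0.000272 and 0.00207). The serum call in WT cells was lost without library 1, 3, 7 or 8 (adjusted p up to 0.127) and that in ΔLEO1 cells in 9 of the 12 fits, all but those without library 3, 11 or 12 (up to 0.274). The genotype call in 0.1% serum was lost without library 9 (0.106). The adjusted p of COL28A1 with DESeq2 was 0.111 and 0.236 with serum and 0.0595 and 0.191 between genotypes, and the quasi-likelihood test gave 0.0653 for the serum comparison of ΔLEO1 cells.

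The 16 collagens that did not pass the filter are given as reads. COL6A5, COL9A1 and COL22A1 had 0 reads in all 12 libraries, where a count of 0 allows up to 3 reads or 0.0662 to 0.114 CPM. COL2A1, the main collagen of cartilage, had at most 1 read in a library. COL20A1 had 0 reads in the 6 WT libraries and 2, 7 and 9 in ΔLEO1 cells in 10% serum and 4, 7 and 15 in 0.1% serum. COL9A2 had 9, 13 and 15 reads in WT cells in 10% serum and 16, 9 and 12 in 0.1% serum, against 1, 1 and 3 and then 0 in all libraries of ΔLEO1 cells. COL24A1 was the member closest to the filter from outside, with a third-highest CPM of 0.836, and COL11A2 the closest from inside, with 2.32. COL24A1 had 47, 44 and 28 reads in WT cells in 10% serum and 5, 2 and 3 in ΔLEO1 cells. The 58-base stretches that a tested collagen shared with other genes made up at most 0.72% of its stretches (COL28A1).

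The ratio of partner chains in a library does not depend on the scaling. For 6 pairs of chains joined in 1 protein, 24 differences of the log2 ratio per kilobase were compared, and 15 had groups without overlap. The share without overlap among ratios of other genes was not computed, so this count is not shown to be particular to collagens. An exact two-sided permutation test of 3 libraries against 3 cannot go below 0.1, and the smallest adjusted p was 0.16, so no ratio passed. The ratio of COL6A3 to COL6A1 was 0.83 to 0.931 in WT cells in 10% serum and 0.315 to 0.36 in 0.1% serum, a difference of -1.40 on the log2 scale. In ΔLEO1 cells it went from 2.93 to 3.53 in 10% serum to 0.335 to 0.545 in 0.1% serum, a difference of -2.93, and in 10% serum the genotypes differed by 1.84. The ratio of COL5A1 to COL5A2 rose by 1.04 in WT and 0.87 in ΔLEO1 cells in low serum, and was lower in ΔLEO1 cells by 0.70 and 0.87 in 10% and 0.1% serum, with no overlap in any of these comparisons (each exact p = 0.1).

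The chains of types VIII and IV were compared in the same way. The ratio of COL8A1 to COL8A2 was 11.9 to 28.5 in WT and 91.2 to 103.5 in ΔLEO1 cells in 10% serum, and 6.43 to 10.5 and 18.0 to 36.7 in 0.1% serum. The ratio of COL4A1 to COL4A2 was 0.69 to 0.694 in WT and 0.988 to 1.04 in ΔLEO1 cells in 10% serum. In 0.1% serum that of COL4A1 to COL4A2 spread from 0.495 to 0.839 in WT and from 0.628 to 0.885 in ΔLEO1 cells, and the genotypes overlapped. The ratio of COL6A1 to COL6A2 lay between 0.621 and 0.849 in the 12 libraries and differed without overlap between genotypes in 0.1% serum (0.25 on the log2 scale, exact p = 0.1). The ratio of COL1A1 to COL1A2 went from 1.30 to 1.69 in WT cells in 10% serum to 1.06 to 1.24 in 0.1% serum, also without overlap (-0.47, exact p = 0.1), and its groups overlapped in the other comparisons.

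**Figure D4:**
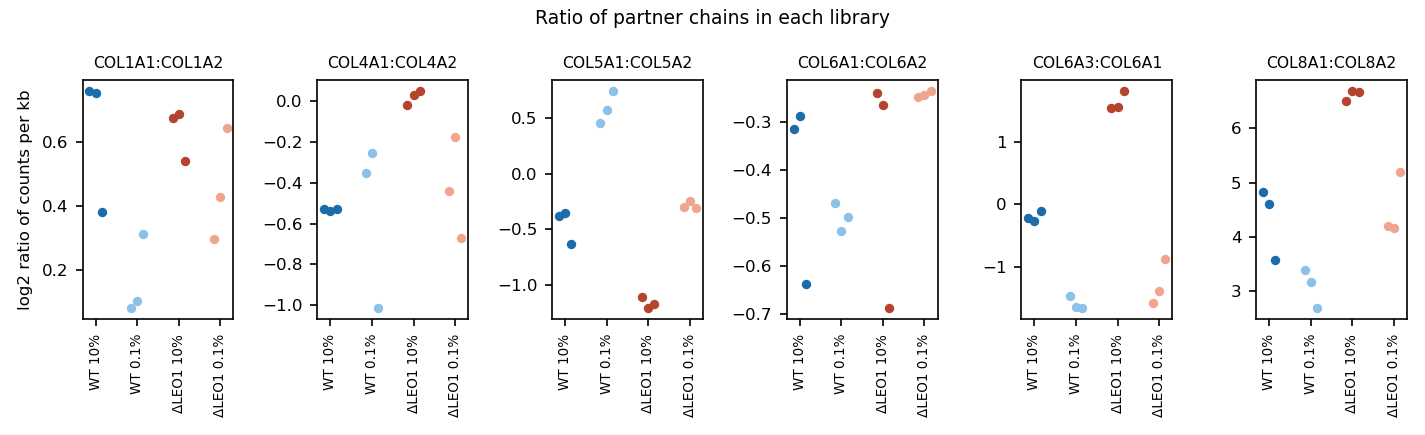
Log2 ratio of the counts per kilobase of 6 pairs of partner chains (vertical axes, which differ between panels and do not start at 0) in each library, coloured by group. For COL6A3 and COL6A1 the ΔLEO1 libraries in 10% serum lie between 1.55 and 1.82, above the WT libraries at -0.27 to -0.10, and both genotypes are below -0.87 in 0.1% serum.

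As a share of all gene counts, the 44 collagens took 7.35 to 8.75% in WT cells in 10% serum, 7.49 to 9.64% in WT cells in 0.1% serum and 7.63 to 8.37% in ΔLEO1 cells in 10% serum. The share was 5.57, 5.64 and 7.01% for ΔLEO1 cells at 0.1% serum, below every other library. The make-up of that share shifted between types. Fibrillar collagens took 71.5 to 74.5% of the collagen counts in WT and 77.7 to 80.3% in ΔLEO1 cells in 10% serum, and 50.7 to 62.9% and 64.5 to 73.2% in 0.1% serum. Type VI took 14.8 to 16.7% and 9.87 to 10.3% in 10% serum, and 32.0 to 42.6% and 18.9 to 27.2% in 0.1% serum. Type IV took 0.221 to 0.254% of all gene counts in WT and 0.326 to 0.413% in ΔLEO1 cells in 10% serum. In 0.1% serum type IV took 0.142 to 0.146% and 0.137 to 0.181%, and the genotypes overlapped. Library 12 had the highest fibrillar share and the lowest type VI share of its group, as did library 9.

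**Figure D5:**
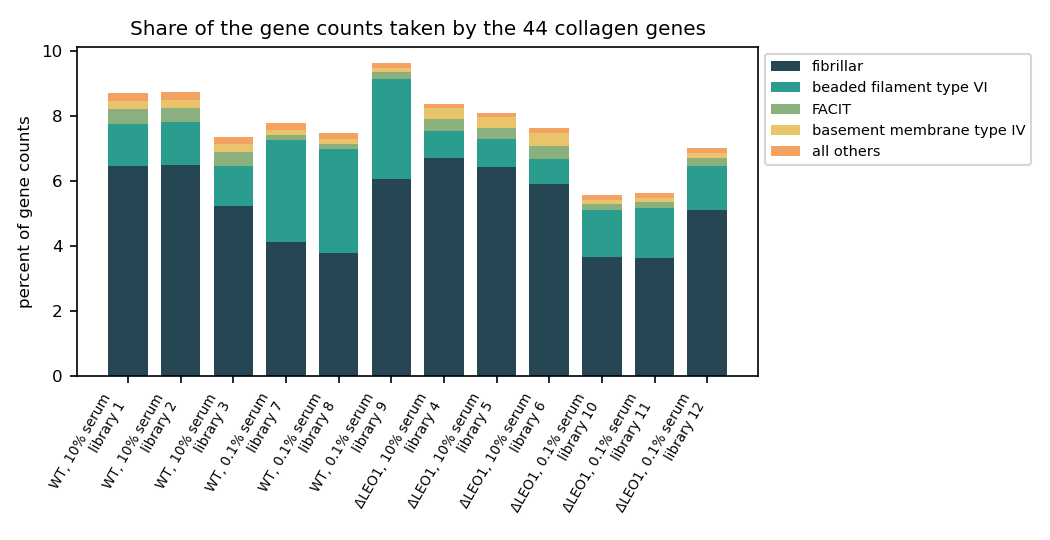
Percent of the gene counts (vertical axis from 0) taken by the 44 collagen genes in each of the 12 libraries, stacked by type. Type VI takes 3.09 to 3.19% in WT cells in 0.1% serum and 0.753 to 0.832% in ΔLEO1 cells in 10% serum.

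Genes that make and handle collagen were examined as lists. Of 37 genes for synthesis and processing, 33 were tested, and low serum lowered 20 in WT and 22 in ΔLEO1 cells and raised none, with medians of -1.13 and -1.24 (background 36.1% and 47.2% lower). P3H2, a prolyl 3-hydroxylase, led the list and fell by 2.897 (adjusted p = 5.45e-07) and 3.12 (adjusted p = 1.11e-07) on the log2 scale. With TMM scaling the list had 12 lower and 5 higher genes in WT cells (16.6% and 16.0% of all genes). In ΔLEO1 cells it had 10 and 7 (12.9% and 16.5% of all genes). Between genotypes 1 gene was called, ADAMTS14, a protease that trims procollagen, which was lower in ΔLEO1 cells in 10% serum by 2.31 (adjusted p = 0.000428). That is 3.03% of the list, against 4.64% of all genes called lower and 4.2% higher. In 0.1% serum no gene of the list was called (3.59% and 3.85% of all genes). With TMM scaling 9 were lower and 2 higher at each serum level (21.8% and 17.7% of all genes in 10% serum, 17.6% and 15.4% in 0.1% serum).

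Of 18 genes for collagen breakdown and uptake, 14 were tested. The list includes TIMP1, TIMP2 and TIMP3, which inhibit matrix proteases. In low serum 6 genes were lower and 1 higher in WT cells and 6 lower in ΔLEO1 cells. The inhibitor TIMP1 had 26970 to 50250 ERCC-scaled counts in WT cells in 10% serum and 60990 to 111200 in 0.1% serum. The 42.9% lower in each genotype lies near the 36.1% and 47.2% of all genes. With TMM scaling 3 of these genes were lower and 6 higher in WT cells (16.6% and 16.0% of all genes). In ΔLEO1 cells 3 were lower and 5 higher (12.9% and 16.5% of all genes). MMP3, stromelysin, fell by 3.43 (adjusted p = 6.01e-10) and 3.11 (adjusted p = 3.75e-08) on the log2 scale. MMP1, the interstitial collagenase, was higher in ΔLEO1 cells by 2.09 (adjusted p = 0.000126) in 10% serum and 2.49 (adjusted p = 3.52e-06) in 0.1% serum, where it was the 1 gene called. In 10% serum 2 genes of this list were higher in ΔLEO1 cells (14.3%, against 4.2% of all genes). The inhibitor TIMP3 had 99320 to 157400 ERCC-scaled counts in WT and 449400 to 653100 in ΔLEO1 cells in 10% serum. Of 9 receptors for collagen, 7 were tested, and 6 (85.7%) fell in WT and 4 (57.1%) in ΔLEO1 cells, against 36.1% and 47.2% of all genes. With TMM scaling 3 of the 7 were lower and 0 higher in WT cells, and 3 lower and 1 higher in ΔLEO1 cells. The receptors included ITGA1, a chain of the integrin that binds type IV, which was higher in ΔLEO1 cells in 10% serum by 1.67 (adjusted p = 0.00431). Of 15 organizers of fibrils, 14 were tested. Low serum lowered 5 and raised 2 in WT cells and lowered 3 and raised 3 in ΔLEO1 cells (background 36.1% lower and 0.944% higher, and 47.2% and 0.975%), with medians of 0.21 and -0.17 against -0.97 and -1.05 over all genes. In ΔLEO1 cells 3 of these organizers were lower and 1 higher than in WT cells at each serum level, where 4.64% and 4.2% of all genes were called in 10% serum and 3.59% and 3.85% in 0.1% serum. ASPN, asporin, was the 1 organizer called in the interaction (4.24, adjusted p = 2.78e-05).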

How the data were processed

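Poly(A) RNA of 12 libraries was sequenced by the authors from a stranded mRNA kit with ERCC spike-in. Per the submitters' processing notes, bcl2fastq 2.20.0.422, STAR 2.7.10a and featureCounts 1.5.1 were used on GRCh38; the annotation release, the strand setting and the RNA input of each library are not given in the sources used here. The deposited files hold raw counts per gene and per ERCC transcript, not normalized, and were used as deposited.

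The filter kept genes above 1 CPM in at least 3 libraries. Effective library size was the ERCC total times its TMM factor. All 12 libraries entered 1 fit of 4 groups in edgeR 4.0.16 (R 4.3.3, limma 3.58.1), with two-sided likelihood ratio tests and Benjamini-Hochberg adjustment over 13236 genes. The quasi-likelihood test was an alternative, as were DESeq2 1.42.0, other scalings and filters, an adjusted p under 0.01 and each library left out. Scripts were tested on simulated data. Exons and lengths came from GENCODE on GRCh38, which held 58453 of the identifiers, and promoter windows from RefSeq on GRCh38.p14.

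Library values were given for COL1A1, COL1A2, COL3A1, COL5A1, COL5A2, COL4A1, COL4A2, COL6A1, COL6A2, COL6A3, COL12A1 and COL14A1, for members called in the interaction, and for the 3 largest called rises and falls of each comparison, 20 genes in all; COL4A3, COL9A2, COL15A1, COL16A1, COL20A1 and COL24A1 were added after their values were seen. Of each list of other genes, the called gene with the largest change could be named. The members and lists were chosen with earlier results of these data known. Chain ratios used counts plus 1 per exon kilobase. Intervals cover counting error only.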

Additional observations from a re-analysis of the deposited data

Results flagged for a closer look

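The serum response of COL14A1 differed between the genotypes by the test of the interaction itself. COL14A1 rose in WT cells and was not called in ΔLEO1 cells, with a difference of -6.65 ± 0.66 on the log2 scale, and the adjusted p was 1.7e-14 with the quasi-likelihood test. COL21A1 also passed that test, with 1.98 in WT cells, -2.21 ± 0.96 in ΔLEO1 cells and a difference of -4.19 ± 1.10. That value is a description only, since COL21A1 passed the filter through WT cells in 0.1% serum alone, where it is high, and rests on 11 reads in 10% serum and 4 in 0.1% serum in ΔLEO1 cells. The interaction call of COL21A1 was lost in 6 of the 9 fits that left out a library and tested it, with the quasi-likelihood test (adjusted p = 0.0750) and with DESeq2 on the ERCC scale (adjusted p = 0.156).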

How the results depend on the processing

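No paired analysis was possible because the labels number the libraries from 1 to 12, so no group shares a number with another, and name no batch. Scaling by the genes (TMM or DESeq2 size factors) gave 8 collagens higher in low serum in each genotype, 11 lower and 10 higher in ΔLEO1 cells in 10% serum, 11 lower in 0.1% serum, and 4 lower and 3 higher in the interaction. An adjusted p under 0.01 left 10 lower and 1 higher in the serum comparison of ΔLEO1 cells. Without a filter 11 were lower in ΔLEO1 cells in 10% serum, and with filterByExpr 4 were lower in 0.1% serum. Without the highest-numbered library of each group, 11 were lower and 2 higher in ΔLEO1 cells in 0.1% serum. The interaction had 1 lower with the quasi-likelihood test, DESeq2, no filter, the stricter threshold and without the highest-numbered libraries, where COL21A1 was not tested since fewer libraries passed the filter. Apart from that filter, the cause was not tested.

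Leaving out 1 library at a time gave 9 to 17 lower and 1 to 5 higher in WT cells in low serum, 8 to 23 and 0 to 4 in ΔLEO1 cells, 4 to 7 and 3 to 7 between genotypes in 10% serum, 1 to 10 and 1 to 6 in 0.1% serum, and 1 to 2 and 0 to 1 in the interaction. Shares of all genes called in these fits, with other filters and at the stricter threshold are not given here. The swings are therefore not shown to be particular to collagens. They include fits without library 1, 2 or 3, where COL4A4 was not tested, and without library 7, 8 or 9, where COL21A1 was not. The log2 ratios near 0 changed sign. COL1A1 to COL1A2 between genotypes in 10% serum was -0.0754 without the highest-numbered libraries and -0.1216 to 0.068 over single libraries. COL4A1 to COL4A2 was 0.2306 (-0.1522 to 0.2289) with serum in WT cells and -0.0061 (-0.1271 to 0.254) between genotypes in 0.1% serum, and COL6A1 to COL6A2 in 10% serum -0.097 to 0.1605. No called change of a named gene changed sign under any alternative run.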
